A study of Homo sapiens with 8 samples.

Results

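Transcripts of 9 enzymes that break down branched-chain amino acids and tryptophan were followed in Nthy-ORI cells, an established epithelial line from normal human thyroid. The 9 genes were chosen by their symbols, with earlier results of these counts known: BCAT1, BCAT2, BCKDHA, BCKDHB, BCKDK, KYNU, KMO, IDO1 and TDO2. All 9 were among the 56832 genes listed in each library, 7 had at least 1 count in some library, and 6 passed the filter on low counts. IDO1 and TDO2 had 0 counts in all 8 libraries, and BCKDHA had too few counts to be tested. Their differences below are therefore descriptions of genes picked by name, and none is independent evidence.

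The cells had been kept for 24 h in medium without hormone and then received 10 nM T3, the active thyroid hormone, or NaOH vehicle. The 4 groups of 2 libraries each were T3 for 24 h, vehicle for 24 h, T3 for 6 h and vehicle for 6 h, all from ribosome-depleted total RNA and all labelled as the same line. Whether the 24 h and 6 h libraries came from the same stock of that line cannot be told from the labels, and lineage markers differed between them, which bears on every value of 24 h against 6 h. Whether the 2 libraries of a group are separate cultures is not stated in the labels, and every p-value here rests on a spread between libraries that may be technical.

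Leucine, isoleucine and valine lose their amino group to alpha-ketoglutarate through a branched-chain aminotransferase, the cytosolic BCAT1 or the mitochondrial BCAT2. The resulting keto acids are oxidised in mitochondria by the branched-chain keto acid dehydrogenase (BCKDH) complex, whose decarboxylase is made of BCKDHA and BCKDHB and is switched off when the kinase BCKDK phosphorylates it. Tryptophan enters the kynurenine pathway through the dioxygenases IDO1 or TDO2, after which KMO hydroxylates kynurenine and KYNU cleaves kynurenine and hydroxykynurenine on the way to NAD.

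Sequences upstream of the annotated starts are shown for BCAT1, BCKDK, KYNU and KMO, to let their CpG content be read beside their levels. They are the 250 bases before a RefSeq start on GRCh38.p14, written 5′ to 3′ on the gene's strand, with each CG pair in capitals. RefSeq windows were found for 7 of the 9 genes, but not for BCAT2 or IDO1, and BCAT1 had 5 of them.
BCAT1, chr12:24949341-24949590, minus strand: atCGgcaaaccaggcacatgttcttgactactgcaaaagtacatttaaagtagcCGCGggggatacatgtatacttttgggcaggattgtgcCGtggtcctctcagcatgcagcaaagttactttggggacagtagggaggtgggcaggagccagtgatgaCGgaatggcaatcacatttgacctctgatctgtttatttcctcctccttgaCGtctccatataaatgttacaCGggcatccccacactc
BCAT1, chr12:24902901-24903150, minus strand: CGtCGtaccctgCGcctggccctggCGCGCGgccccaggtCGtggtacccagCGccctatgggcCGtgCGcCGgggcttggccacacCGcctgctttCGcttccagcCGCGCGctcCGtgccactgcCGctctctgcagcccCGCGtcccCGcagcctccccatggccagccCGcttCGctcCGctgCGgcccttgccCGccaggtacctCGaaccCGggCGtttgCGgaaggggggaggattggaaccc
BCKDK, chr16:31108136-31108385, plus strand: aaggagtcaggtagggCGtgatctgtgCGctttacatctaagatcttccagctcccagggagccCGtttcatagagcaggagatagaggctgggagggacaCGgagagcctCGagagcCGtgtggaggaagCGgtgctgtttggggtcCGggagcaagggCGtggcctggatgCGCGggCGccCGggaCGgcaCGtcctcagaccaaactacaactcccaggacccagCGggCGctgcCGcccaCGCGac
KYNU, chr2:142877414-142877663, plus strand: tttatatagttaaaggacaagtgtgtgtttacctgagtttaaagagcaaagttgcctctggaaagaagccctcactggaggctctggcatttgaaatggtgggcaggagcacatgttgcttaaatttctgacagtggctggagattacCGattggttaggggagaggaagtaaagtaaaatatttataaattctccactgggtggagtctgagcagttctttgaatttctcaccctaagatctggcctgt
KMO, chr1:241532128-241532377, plus strand: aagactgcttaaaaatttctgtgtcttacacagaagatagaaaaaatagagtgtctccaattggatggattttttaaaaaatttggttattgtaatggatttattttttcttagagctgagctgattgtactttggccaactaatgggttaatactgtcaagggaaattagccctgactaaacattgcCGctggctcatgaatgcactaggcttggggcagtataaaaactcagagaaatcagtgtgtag

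The KYNU and KMO windows each held 1 CG pair, and 6.05% of 35114 RefSeq windows of that length held fewer. The BCKDK window held 20 CG pairs, against a median of 11 over all windows. The 2 printed BCAT1 windows held 7 CG pairs at the first start and 30 at the second. These were the lowest and highest of its 5 windows, and the others held 10, 17 and 28. The letters AGGTCA, searched on both strands because they make up the core of thyroid hormone response elements, were present in the first BCAT1 window and in 12.1% of all windows. Of the windows of the 9 genes, no other held AGGTCA, and none held AGGTCA followed by 4 unspecified bases and a second AGGTCA, which 0.0142% of all windows held and which contains the shorter motif. The letters TATAAA, searched in the same way, occurred in the KYNU, KMO and TDO2 windows, in 2 of the 5 BCAT1 windows and in 10.7% of all windows. These matches describe the letters in the windows and are not binding sites.

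Reads counted in genes ran from 2517983 to 8201606 a library, so that 3 counts, used here as a floor, corresponded to between 0.346 and 1.22 CPM. CPM is a gene's count relative to the total of its library, scaled by the trimmed mean of M values (TMM). KLF9 and HR, established targets of thyroid hormone receptors, were read as a check of the labels. KLF9 averaged 13.7 ± 0.48 CPM in T3 libraries and 0.86 ± 0.06 CPM in vehicle libraries at 6 h (SD, n = 2 each), but 3.06 ± 0.40 CPM in the libraries labelled T3 and 26.0 ± 7.47 CPM in those labelled vehicle at 24 h. HR had 108 ± 9.90 CPM with T3 and 63.2 ± 6.98 CPM with vehicle at 6 h, against 3 counts in the libraries labelled T3 and 45 in those labelled vehicle at 24 h. Both genes therefore went against the labels at 24 h, and every direction given there is between libraries as labelled.

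The times differed far more than the treatments. Of 14611 genes tested, 64.5% had an adjusted p under 0.05 between the times in vehicle libraries and 70.4% in T3 libraries, in edgeR's quasi-likelihood test with Benjamini-Hochberg adjustment. Some markers of the line moved with time as well. The 9 thyroid follicular markers summed to 150 to 153 CPM in T3 and 148 to 192 CPM in vehicle libraries at 24 h. At 6 h they summed to 27.0 to 34.6 CPM in T3 and 42.3 to 43.2 CPM in vehicle libraries, with TSHR and TG among those at 0. Most of the 24 h sum was PAX8, which averaged 112 CPM in T3 and 134 CPM in vehicle libraries, against 4.17 and 11.7 CPM at 6 h. Of the 3 thyroid follicular markers tested, PAX8 and FOXE1 were called higher at 24 h with either treatment, and 1 was not called. NKX2-1 and SLC5A5 had few counts, and no more at 24 h than at 6 h with either treatment. The 5 epithelial markers summed to 213 to 217 and 244 to 303 CPM at 24 h and to 466 to 480 and 467 to 525 CPM at 6 h (T3 before vehicle), with KRT19 at 0 at 6 h and CDH1 at 0 in the libraries labelled T3 at 24 h. In these bulk libraries fewer cells of a kind and less RNA per cell cannot be told apart, and the part of these marker shifts in any result below was not tested.

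**Figure D1:**
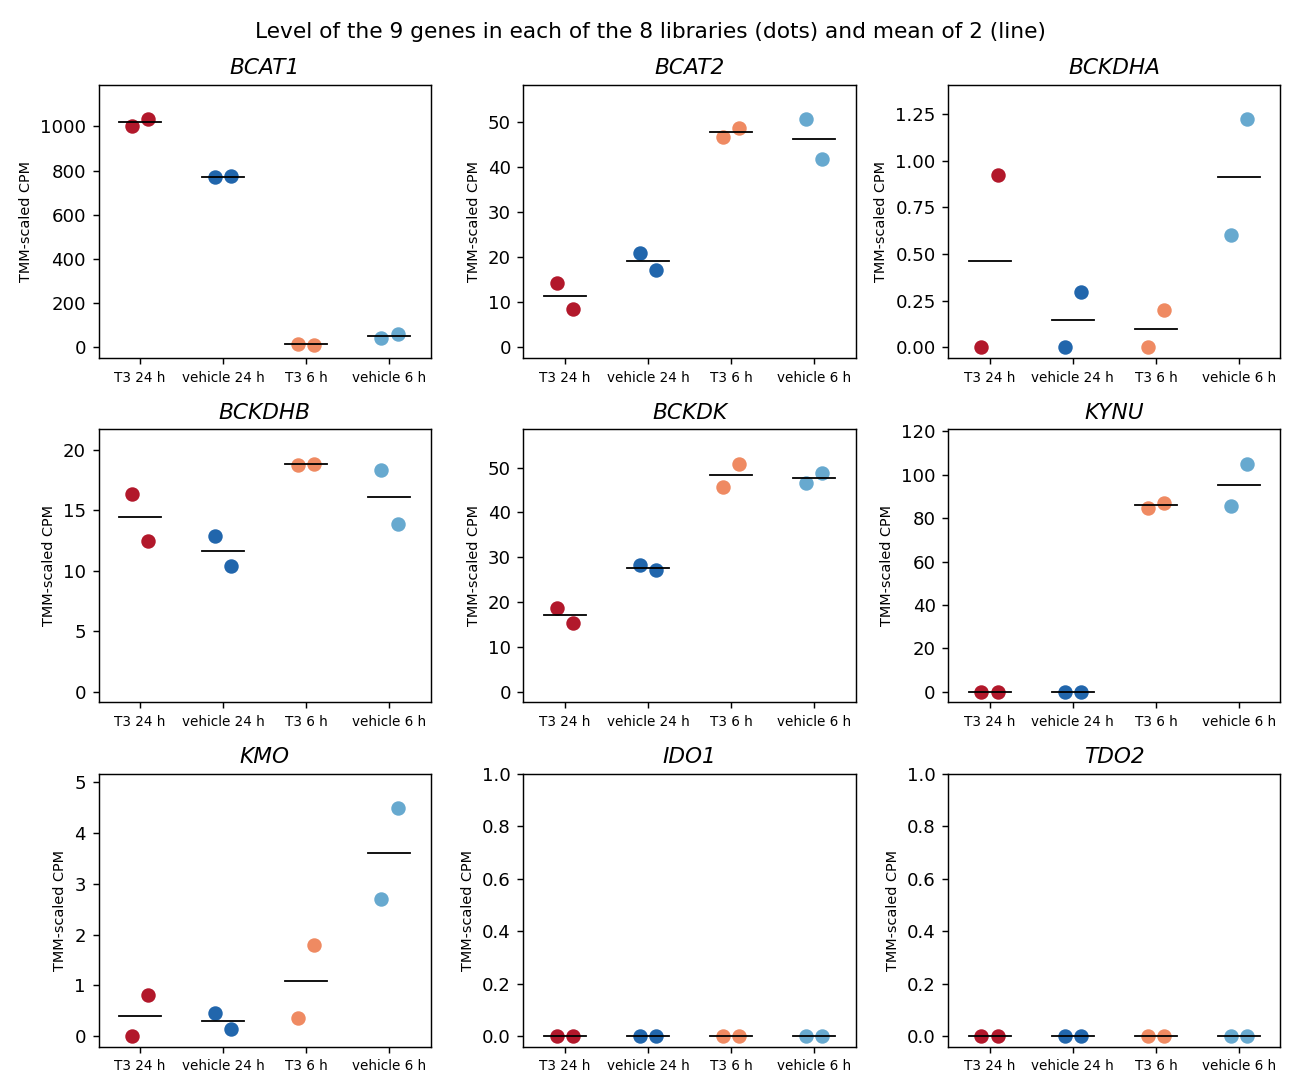
Level of each of the 9 genes (vertical axes, TMM-scaled CPM, linear and different in each panel) in the 8 libraries, by group; dots are libraries and lines are means of 2. BCAT1 lies at 770 CPM or more in the 24 h libraries and at 61.5 CPM or less in the 6 h libraries, KYNU is at 0 in all 24 h libraries, and IDO1 and TDO2 are at 0 throughout.

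BCAT1 RNA was high at 24 h and low at 6 h with either treatment, and at 6 h it was lower with T3 than with vehicle. BCAT1, the cytosolic aminotransferase (chromosome 12, 24810022 to 24949459, minus strand, GENCODE 29 on GRCh38), had 1003 and 1033 CPM in T3 libraries and 770 and 776 CPM in vehicle libraries at 24 h. At 6 h it had 14.1 and 12.4 CPM in T3 libraries, against 43.8 and 61.5 CPM in vehicle libraries. No group overlapped another, and the order of the groups was T3 24 h, vehicle 24 h, vehicle 6 h, T3 6 h from the highest down. The log2 fold change of 24 h over 6 h was 6.28 ± 0.18 in T3 libraries (SE, adjusted p = 2.8e-14) and 3.89 ± 0.15 in vehicle libraries (adjusted p = 1.83e-12).

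T3 over vehicle, BCAT1 fell by 1.99 ± 0.18 on the log2 scale at 6 h (SE, adjusted p = 6.22e-06). At 24 h the log2 difference between libraries labelled T3 and vehicle was 0.40 ± 0.13, with an adjusted p of 0.0504, just above the threshold of 0.05. It was under the threshold in 5 of 15 other settings, and the difference was 0.04 after correction for GC content and length. The response at 24 h minus the response at 6 h was 2.39 ± 0.22 (adjusted p = 1.98e-05).

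The 6 h levels can also be read as a share of the mean over all 24 h libraries, T3 and vehicle together. The 6 h T3 libraries were at 1.57% and 1.39% of that common mean, and the 6 h vehicle libraries at 4.90% and 6.87%. Across the table, 96 genes with at least 20 CPM at 24 h had a mean at least 16-fold higher at 24 h than at 6 h. At 6 h their median log2 fold change of T3 over vehicle was -1.38, against -0.02 over all genes tested, and BCAT1 ranked 26 of 96 from the lowest. Of these 96 genes, 25 were lower with T3 at 6 h by edgeR's test, where 3.86% of all genes were lower, and 0 were higher (also 0 at an unadjusted p under 0.05). For the 220 genes at least 16-fold higher at 6 h than at 24 h, the median was 0.08, with 7 lower and 18 higher. Both readings use the same 6 h libraries, the set was picked after its values were seen, and what these genes share with the BCAT1 value was not tested. PAX8, a thyroid lineage factor, also had less RNA with T3 at 6 h. It averaged 4.17 ± 0.23 CPM with T3 and 11.7 ± 2.50 CPM with vehicle (SD, n = 2 each, edgeR adjusted p = 0.0119). That call was lost when any 1 of those 4 libraries was left out. It was also lost after correction for GC content and length (adjusted p = 0.053). Of the 3 thyroid follicular markers tested at 6 h, PAX8 was the 1 called lower, and 2 were not called.

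**Figure D2:**
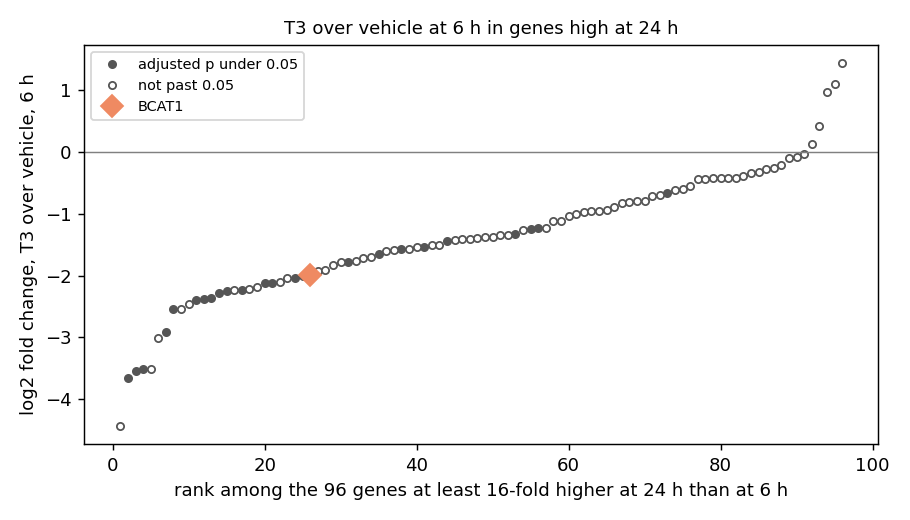
Log2 fold change of T3 over vehicle at 6 h (vertical axis) for the 96 genes at least 16-fold higher at 24 h than at 6 h, ranked from lowest to highest (horizontal axis); filled points had an adjusted p under 0.05. BCAT1, the diamond, is at rank 26 with a value of -1.99, between the lower quartile of -2.02 and the upper quartile of -0.68.

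BCAT2 ran the other way between the times. BCAT2, the mitochondrial aminotransferase (chromosome 19, 48795062 to 48811029, minus strand), had 14.4 and 8.64 CPM in T3 libraries and 20.9 and 17.3 CPM in vehicle libraries at 24 h. At 6 h it had 46.9 and 48.7 CPM in T3 libraries and 50.7 and 42.0 CPM in vehicle libraries. All 24 h libraries were below all 6 h libraries, the treatments did not overlap at 24 h, and they overlapped at 6 h. At 24 h over 6 h, BCAT2 fell by 2.08 ± 0.23 on the log2 scale in T3 libraries (SE, adjusted p = 4.17e-07) and by 1.30 ± 0.23 in vehicle libraries (adjusted p = 0.000104). These values were -1.07 (adjusted p = 0.00043) and -0.50 (adjusted p = 0.0577) after correction for GC content and length. T3 over vehicle, the log2 fold change was 0.04 ± 0.22 at 6 h (adjusted p = 0.942) and -0.74 ± 0.24 at 24 h as labelled (adjusted p = 0.0493), and the 24 h call was lost in 12 of 15 other settings.

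The balance of the aminotransferases therefore differed between the times. In counts per kilobase of exon, BCAT1 made up 96.4% and 97.9% of BCAT1 plus BCAT2 in T3 libraries and 93.4% and 94.6% in vehicle libraries at 24 h. At 6 h it made up 10.4% and 8.98% in T3 libraries and 25.04% and 36.2% in vehicle libraries. The cytosolic form had the larger share in every 24 h library and the mitochondrial form in every 6 h library. The T3 libraries were at the outer end at both times, with count ratios of BCAT1 to BCAT2 of 69.8 and 120 in T3 libraries against 36.8 and 44.9 in vehicle libraries at 24 h, and of 0.30 and 0.255 against 0.864 and 1.47 at 6 h.

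**Figure D3:**
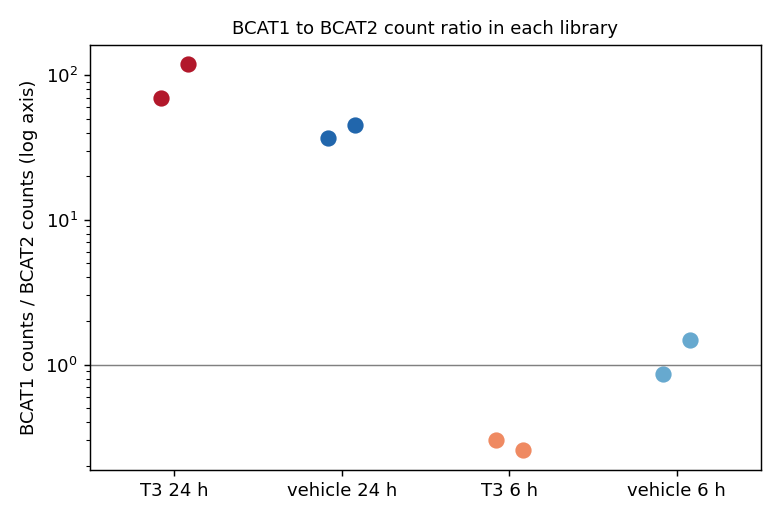
Ratio of BCAT1 to BCAT2 counts in each library (vertical axis, log scale; no length scaling), by group; each dot is a library and the grey line marks equal counts. The 24 h libraries lie between 36.8 and 120 and the 6 h libraries between 0.255 and 1.47, without overlap between the times.

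Among transcripts of the keto acid dehydrogenase, BCKDHB changed less between the times than either aminotransferase before correction for GC content and length. BCKDHB, the beta subunit of the decarboxylase (chromosome 6, 80106647 to 80346270, plus strand), had 16.4 and 12.4 CPM in T3 libraries and 12.8 and 10.4 CPM in vehicle libraries at 24 h, and 18.7 and 18.8 CPM in T3 libraries and 18.3 and 13.9 CPM in vehicle libraries at 6 h. The treatments overlapped at 24 h and did not at 6 h, where the T3 libraries were slightly higher. Its log2 fold change of 24 h over 6 h was -0.39 ± 0.26 in T3 libraries (SE, adjusted p = 0.179) and -0.49 ± 0.28 in vehicle libraries (adjusted p = 0.128). T3 over vehicle, it was 0.31 ± 0.26 at 24 h (adjusted p = 0.453) and 0.21 ± 0.27 at 6 h (adjusted p = 0.703). None of these passed the threshold, but after correction for GC content and length the falls with time did, at -0.96 in T3 libraries (adjusted p = 0.00409) and -1.09 in vehicle libraries (adjusted p = 0.00382).

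BCKDK, the kinase that inactivates the complex (chromosome 16, 31106107 to 31112791, plus strand), had 18.7 and 15.4 CPM in T3 libraries and 28.4 and 27.1 CPM in vehicle libraries at 24 h. At 6 h it had 45.8 and 50.9 CPM in T3 libraries and 46.5 and 48.9 CPM in vehicle libraries. The 24 h libraries were all below the 6 h libraries, at 24 h the libraries labelled T3 were below those labelled vehicle, and at 6 h the treatments overlapped. At 24 h over 6 h it fell by 1.51 ± 0.18 on the log2 scale in T3 libraries (SE, adjusted p = 1.12e-06) and by 0.78 ± 0.18 in vehicle libraries (adjusted p = 0.00128). Correction for GC content and length left -0.44 in T3 libraries (adjusted p = 0.0357) and turned the vehicle value to 0.06 (adjusted p = 0.78). T3 over vehicle, the log2 fold change was -0.70 ± 0.18 at 24 h as labelled (adjusted p = 0.0196), but -0.23 after that correction (adjusted p = 0.564), and 0.03 ± 0.18 at 6 h (adjusted p = 0.954). The ratio of BCKDK to BCKDHB counts was 1.14 and 1.24 in T3 libraries against 2.21 and 2.60 in vehicle libraries at 24 h, and 2.44 and 2.702 against 2.54 and 3.53 at 6 h.

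BCKDHA, the alpha subunit (chromosome 19, 41397460 to 41425005, plus strand), had 0 and 8 counts in T3 libraries and 0 and 2 counts in vehicle libraries at 24 h, and 0 and 1 count in T3 libraries and 2 and 3 counts in vehicle libraries at 6 h. Every value was near the floor. In GENCODE 29, 63.8% of its exon bases are shared on the same strand with AC011462.1, annotated as a separate protein-coding gene. How reads in shared exons were counted is not given in the sources used here, so the low counts do not measure the amount of BCKDHA RNA.

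In the kynurenine pathway, KYNU RNA was present at 6 h and not detected at 24 h. KYNU, kynureninase (chromosome 2, 142877498 to 143055832, plus strand), had 0 counts in all 4 libraries at 24 h, T3 and vehicle alike. At 6 h it had 84.7 and 87.1 CPM in T3 libraries, from 235 and 435 counts, and 85.6 and 105 CPM in vehicle libraries, from 285 and 258 counts. The times did not overlap, and the treatments overlapped at 6 h. Against a floor of 3 counts over the 24 h group, KYNU was at least 436-fold lower at 24 h in T3 libraries (adjusted p = 5.93e-12) and at least 349-fold lower in vehicle libraries (adjusted p = 1.77e-11). At 6 h the log2 fold change of T3 over vehicle was -0.14 ± 0.17 (SE, adjusted p = 0.67), and at 24 h no T3 response could be estimated.

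KYNU was not alone in this pattern. In all, 28 genes had at least 20 CPM in every 6 h library and 0 counts in every 24 h library, among them TM4SF1, ALPI, GDA and HOXA13, named after their values were seen. The reverse, 0 counts in every 6 h library and at least 20 CPM in every 24 h library, was met by 0 genes. Hepatocytes and macrophages express KYNU, and the summed markers of both were also lower at 24 h, through a few genes. The 8 hepatocyte markers summed to 18.0 to 22.4 CPM in T3 and 21.7 to 26.8 CPM in vehicle libraries at 24 h, against 3453 to 3572 CPM in T3 and 2854 to 2869 CPM in vehicle libraries at 6 h. Of the 8, 4 and 3 had counts at 24 h and 4 and 5 at 6 h (T3 before vehicle). Nearly all of the 6 h sum was CPS1, the first enzyme of the urea cycle, while APOA1, APOH and TTR were at 0 in every library. SERPINA1, another hepatocyte marker, ran the other way and was higher at 24 h, by 2.83 ± 0.58 on the log2 scale in T3 and by 1.62 ± 0.48 in vehicle libraries (SE). The 7 myeloid markers summed to 0.309 to 1.38 CPM in T3 and 1.80 to 2.83 CPM in vehicle libraries at 24 h, against 53.7 to 58.4 CPM in T3 and 50.5 to 54.0 CPM in vehicle libraries at 6 h. Of the 7, 2 and 6 had counts at 24 h and 5 and 5 at 6 h (T3 before vehicle). CSF1R made up most of the 6 h sum, while LYZ and AIF1 were at 0 at 6 h and ITGAM had 7 and 15 counts at 24 h against 4 and 2 at 6 h (T3 before vehicle). The part of these markers in the KYNU values was not tested.

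KMO, the mitochondrial hydroxylase that acts on kynurenine (chromosome 1, 241532134 to 241595642, plus strand), was near the floor. It had 0 and 7 counts in T3 libraries and 2 and 1 counts in vehicle libraries at 24 h, and 1 and 9 counts in T3 libraries and 9 and 11 counts in vehicle libraries at 6 h. Vehicle libraries of 6 h were the highest in CPM, at 2.702 and 4.48 CPM, and did not overlap vehicle libraries of 24 h, at 0.450 and 0.149 CPM. KMO was lower at 24 h in vehicle libraries (adjusted p = 0.00871), at 0.0778 times the 6 h level with a 95% counting interval of 0.0148 to 0.262, and this call was lost without any 1 of those 4 libraries. In T3 libraries the log2 fold change of 24 h over 6 h was -1.40 ± 1.05 (SE, adjusted p = 0.241). T3 over vehicle, it was 0.65 ± 1.28 at 24 h (adjusted p = 0.786) and -1.52 ± 0.92 at 6 h (adjusted p = 0.355). In GENCODE 29, 28.4% of KMO exon bases are shared with OPN3 on the opposite strand, and without a stated strand setting these reads cannot be told apart.

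IDO1 (chromosome 8, 39902275 to 39928444, plus strand) and TDO2 (chromosome 4, 155854738 to 155920406, plus strand), the dioxygenases that start the pathway, had 0 counts in every library. The count of 0 allows up to 3 counts a library, or 0.346 CPM in the deepest and 1.22 CPM in the shallowest. The cleaving enzyme KYNU was thus detected at 6 h in libraries in which neither entry enzyme was detectable at this depth.

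Counted together, 1 of the 6 tested genes, BCAT1, was past the threshold for T3 against vehicle at 6 h, where 7.64% of all genes were (3.78% higher and 3.86% lower). For T3 against vehicle at 24 h as labelled, 2 of 6 were (BCAT2 and BCKDK, both lower), against 13.3% of all genes (5.58% higher and 7.76% lower). For 24 h against 6 h, 4 of 6 were past it in T3 libraries, where 70.4% of all genes were (35.1% higher and 35.2% lower), and 5 of 6 in vehicle libraries, where 64.5% were (31.9% higher and 32.6% lower). BCAT1 was the only one of them higher at 24 h in both treatments, and the median log2 fold change of the 6 was -1.46 in T3 and -1.04 in vehicle libraries, against 0.02 and 0.03 over all genes tested. For the difference between the T3 responses, 1 of 6 was past it (BCAT1), against 1.84% of all genes (0.849% with the larger log2 value at 24 h and 0.992% with the smaller). The comparisons share groups, and the genes were picked with these values known.

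**Figure D4:**
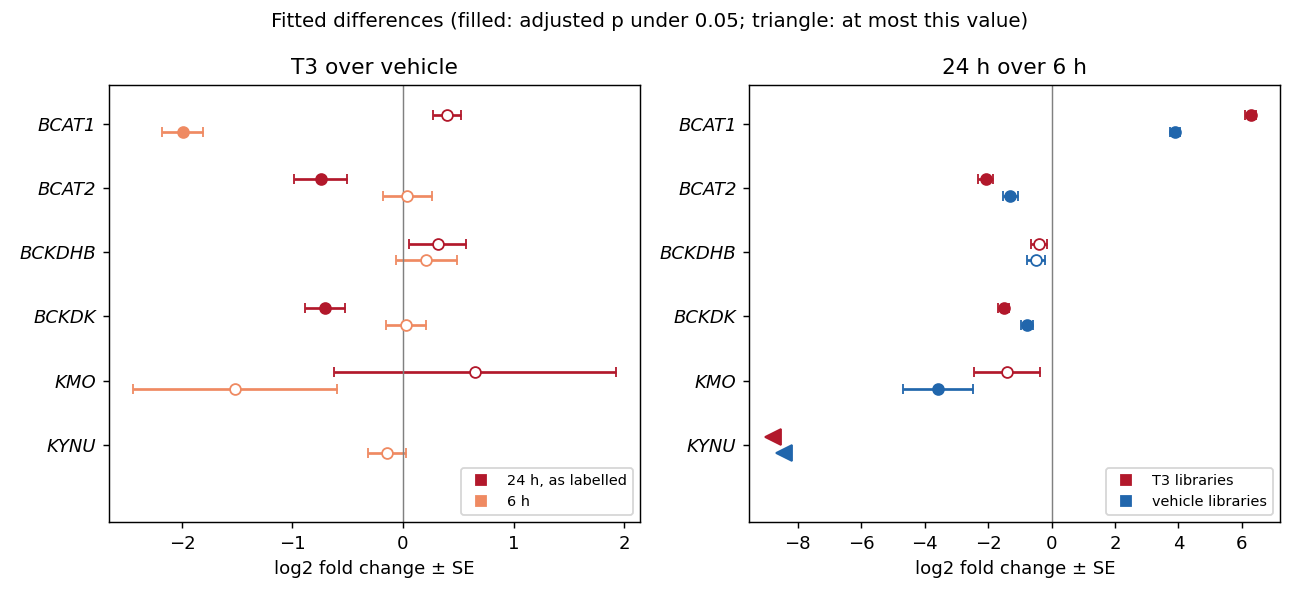
Fitted log2 fold change ± SE (horizontal axes) of the 6 tested genes, T3 over vehicle on the left (24 h as labelled, and 6 h) and 24 h over 6 h on the right (T3 and vehicle libraries); filled symbols had an adjusted p under 0.05, and triangles give the bound for KYNU. BCAT1 is at -1.99 at 6 h and 0.40 at 24 h on the left, and is the only gene right of 0 on the right, at 6.28 and 3.89.

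The pathways around these enzymes were followed through 5 lists with 39 genes, of which 35 were tested. More of them were lower than higher at 24 h, while the share past the threshold was not far from that of all genes. At 24 h against 6 h, 19 were lower and 9 higher in T3 libraries, which is 80% called against 70.4% of all genes, with a median log2 fold change of -0.58. In vehicle libraries 17 were lower and 6 higher, which is 65.7% called against 64.5% of all genes, with a median of -0.66. With T3 against vehicle, 3 were lower and 1 higher at 24 h as labelled, which is 11.4% called against 13.3% of all genes. At 6 h, 0 were lower and 1 higher, which is 2.86% called against 7.64% of all genes. The difference of the T3 responses passed edgeR's threshold for 0 of the 35 and DESeq2's for 0, and 2 had an unadjusted p under 0.05. At 6 h, 4 had lower values at an unadjusted p under 0.05, and DESeq2 called 0 lower.

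The 2 chains of the main leucine carrier had less RNA at 24 h. SLC7A5, the light chain of the LAT1 carrier that brings leucine into the cell, had 201 and 182 CPM in T3 libraries and 288 and 307 CPM in vehicle libraries at 24 h, against 2192 and 2284 CPM in T3 libraries and 2978 and 2616 CPM in vehicle libraries at 6 h. No group overlapped another, and at 24 h it fell by 3.55 ± 0.14 on the log2 scale in T3 libraries (SE, adjusted p = 8.75e-13) and fell by 3.23 ± 0.14 in vehicle libraries (adjusted p = 3.97e-12). Its heavy chain SLC3A2 fell by 1.72 ± 0.19 in T3 and by 1.87 ± 0.20 in vehicle libraries. SLC7A8, a related light chain, had 0 counts at 24 h and was at least 31.2-fold lower there in T3 and at least 27.0-fold lower in vehicle libraries. Of 7 tested uptake genes, 5 fell in T3 and 4 in vehicle libraries, while edgeR, DESeq2 and an unadjusted p under 0.05 each gave 0 that rose. Over all genes, 35.2% fell in T3 and 32.6% in vehicle libraries, and SLC43A1 and SLC43A2, further carriers, were not past the threshold with either treatment.

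The partners of the dehydrogenase went up instead, and this depended on the processing. DBT, the transacylase core of BCKDH, rose by 1.06 ± 0.18 on the log2 scale at 24 h in T3 libraries (SE, adjusted p = 6.42e-05) and by 0.94 ± 0.20 in vehicle libraries (adjusted p = 0.000498). PPM1K, the phosphatase that reactivates the complex, rose by 2.16 ± 0.36 in T3 and by 1.33 ± 0.37 in vehicle libraries. With DLD, the third component, 3 of 3 were higher with either treatment, but after correction for GC content and length only PPM1K stayed higher, in T3 libraries, and DLD turned to -0.40 there.

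Downstream steps were mixed. On the leucine branch, 4 of 6 genes were lower and 1 was higher at 24 h with each treatment. Of all genes, 35.2% were lower and 35.1% higher in T3 libraries, and 32.6% lower and 31.9% higher in vehicle libraries. IVD, the isovaleryl-CoA dehydrogenase, fell by 1.64 ± 0.18 on the log2 scale in T3 and by 1.61 ± 0.18 in vehicle libraries. On the isoleucine and valine branches, 6 of 12 were lower and 4 higher in T3 libraries, and 6 lower and 2 higher in vehicle libraries. After the GC and length correction these were 6 lower and 1 higher in T3 libraries, and 5 lower and 0 higher in vehicle libraries. None of the isoleucine and valine genes that were higher before the correction was still called. The 1 higher was ECHS1, a hydratase at -0.64 before the correction and 0.84 after it (adjusted p = 1.29e-05). HSD17B10, a dehydrogenase of isoleucine breakdown, fell by 2.06 ± 0.17 in T3 and by 1.52 ± 0.17 in vehicle libraries, which the GC and length correction reduced to -0.65 and -0.37. ACAT1, the mitochondrial thiolase, fell by 2.05 ± 0.17 in T3 and by 1.69 ± 0.18 in vehicle libraries. The propionyl-CoA carboxylase subunits moved apart, with PCCB at -1.66 ± 0.17 in T3 and -1.57 ± 0.17 in vehicle libraries, and PCCA at 0.74 ± 0.22 in T3 and 0.88 ± 0.23 in vehicle libraries.

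In the rest of the kynurenine pathway, 7 of 10 listed genes were tested, and IDO2, HAAO and ACMSD had 0 counts throughout. In T3 libraries, 4 were lower and 1 higher at 24 h, and in vehicle libraries 3 were lower and 0 higher (also 0 with DESeq2, and 1 at an unadjusted p under 0.05). AFMID, the formamidase that releases kynurenine, fell by 2.12 ± 0.31 on the log2 scale in T3 and by 1.51 ± 0.31 in vehicle libraries. KYAT1 (listed as CCBL1), which transaminates kynurenine to kynurenic acid, fell by 2.74 ± 0.31 and by 2.32 ± 0.32. QPRT, which turns quinolinic acid into an NAD precursor, fell by 1.53 ± 0.24 and by 0.95 ± 0.23, the vehicle fall being lost with the GC and length correction.

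T3 against vehicle reached 2.86% of the 35 tested genes at 6 h, against 7.64% of all genes. At 24 h as labelled it reached 11.4% of them, against 13.3% of all genes. At 6 h, HIBCH, a hydrolase of valine breakdown, averaged 39.5 ± 1.75 CPM with T3 and 21.5 ± 0.20 CPM with vehicle (SD, n = 2 each), a log2 fold change of 0.88 ± 0.21 (SE, adjusted p = 0.0197). That call was lost when any 1 of those 4 libraries was left out. At 24 h as labelled, QPRT was at 9.63 ± 0.58 CPM with T3 and 19.4 ± 4.81 CPM with vehicle (adjusted p = 0.0107), SLC7A5 was lower by 0.64 on the log2 scale (adjusted p = 0.00494), HSD17B10 was lower (adjusted p = 0.042) and MCCC2 was higher (adjusted p = 0.0454). All of these 24 h calls, and the HIBCH call at 6 h (adjusted p = 0.0605), were lost after the GC and length correction.

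**Figure D5:**
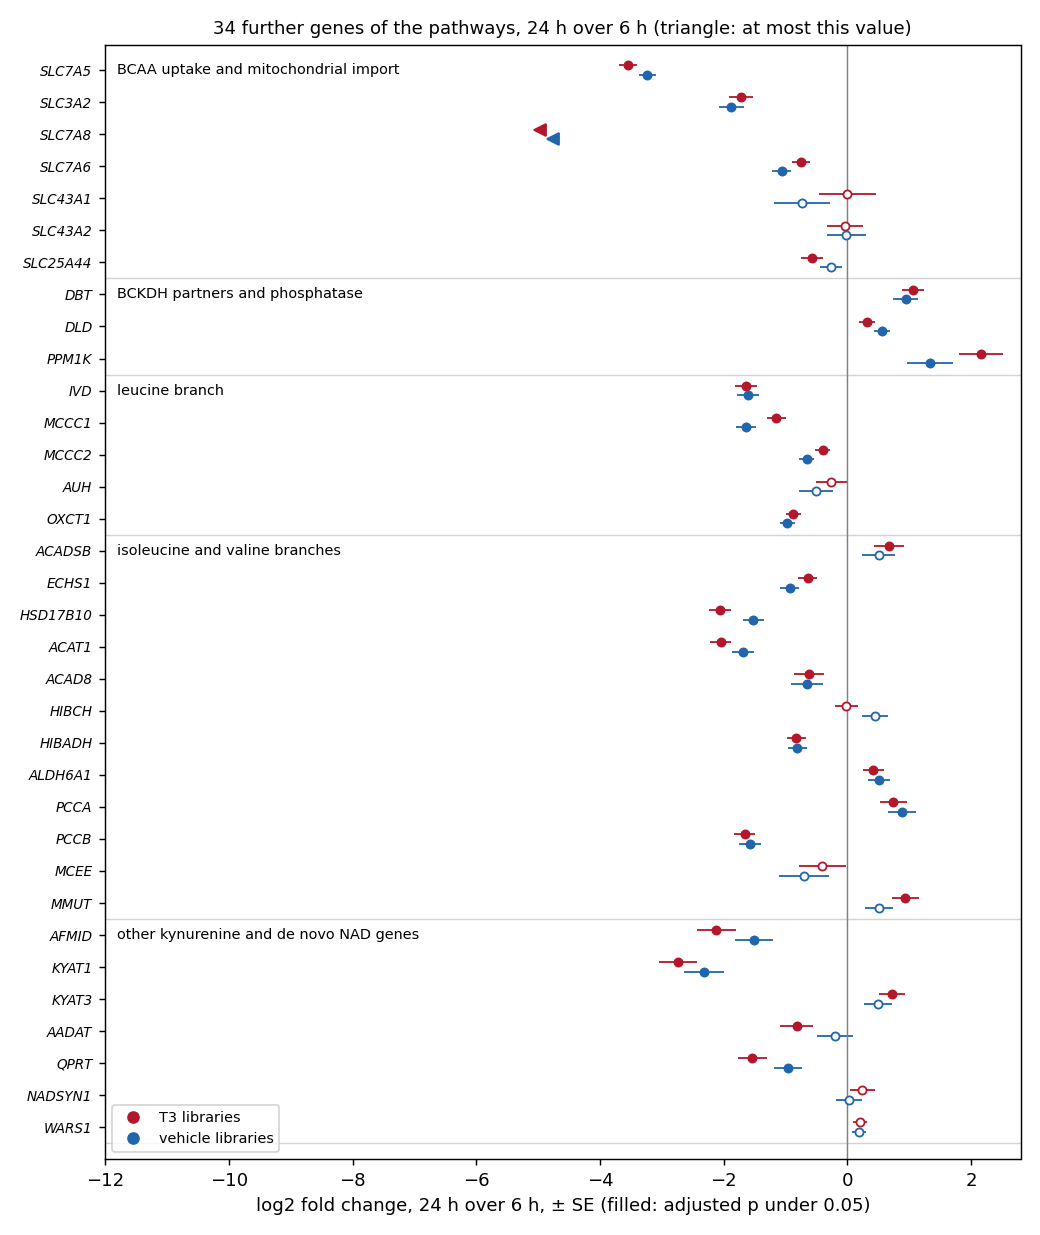
Log2 fold change ± SE of 24 h over 6 h (horizontal axis) for 34 of the 35 tested genes of the 5 lists, in T3 and vehicle libraries; filled points had an adjusted p under 0.05, and triangles give the bound for SLC7A8. SLC7A5 lies at -3.55 and -3.23, while DBT, DLD and PPM1K lie right of 0 in this fit.

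Genes whose profiles over the 8 libraries were most like those of the enzymes were ranked by the root mean square difference of centred log2 CPM, among genes with a mean of at least 5 CPM. For BCAT1 they were SLFN13 (0.185), MYEF2 (0.186) and the noncoding RNA MEG3 (0.206). For KYNU they were SPINK6 (0.113), PDE1A (0.137) and CTC-295J13.3 (0.202), all 3 with 0 counts in every 24 h library. BCAT2 was nearest to TPCN1 (0.0913), BCKDHB to TBC1D7 (0.0604) and BCKDK to L1CAM (0.0894). KMO had no close match, the nearest being FBXL14 at 0.497. All profiles share the same 8 libraries in 4 groups of 2, and the ranking is a description.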

How the data were processed

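RNA-seq of 8 Nthy-ORI libraries was analysed. The deposited files hold unnormalised counts of reads for each gene symbol. Tools named for the authors' processing are CASAVA 1.7, STAR 2.7, HTSeq and DESeq2 on hg38, per the submitters' processing notes, with no role stated for each. The sources used here give no annotation release, strand setting or trimming. Each table also held 5 summary entries, which were left out. Of a library's reads, 12.9% to 17.1% were counted in genes at 6 h and 19.5% to 24.4% at 24 h. Reads without a unique alignment made up 61.2% to 67.4% at 6 h. At 24 h they made up 47.6% and 50.0% in T3 and 57.1% and 56.3% in vehicle libraries. The part of these differences in the results was not tested.

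Counts were fitted with edgeR 4.0.16 (R 4.3.3, TMM, filterByExpr by group, robust quasi-likelihood test, 1 coefficient per group over 8 libraries, 4 residual degrees of freedom). P-values were adjusted by Benjamini-Hochberg over 14611 genes at 0.05. The biological coefficient of variation was 13.1%. Intervals are exact at 95% and, like floors, cover counting error only. The script was tested on simulated data. Gene positions came from GENCODE 29 and sequences from RefSeq.

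The 9 genes, the lists and the naming rule (the 9 genes, KLF9, HR, the 3 closest profiles and up to 4 called genes per list and comparison) were chosen with earlier results of these data known. A few listed genes are not reported here by name. Alternatives covered size factors, DESeq2 1.42.0, the filter, the libraries fitted, a replicate block, GC content and length, and each library left out.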

Additional observations from a re-analysis of the deposited data

Results flagged for a closer look

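The BCAT1 response to T3 differed between the times by 2.39 ± 0.22 on the log2 scale (24 h minus 6 h, edgeR adjusted p = 1.98e-05). BCAT1 RNA was lower under T3 than vehicle at 6 h. At 24 h, in the libraries as labelled, it was higher by 0.40 ± 0.13, which was not past the threshold (adjusted p = 0.0504). The difference of the T3 responses was -7.03 ± 0.57 for KLF9 (adjusted p = 4.02e-06) and -4.96 ± 0.54 for HR (adjusted p = 0.000127). Both genes were higher with T3 at 6 h and lower in the libraries labelled T3 at 24 h. Whether the 24 h labels bear on the BCAT1 difference was not tested.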

How the results depend on the processing

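Of 421 values recomputed for the chosen genes, 373 kept their direction and side of the threshold, 22 lost the threshold, 11 gained it, 13 moved and 2 reversed. The reversals were BCKDK in vehicle libraries, 24 h over 6 h, at 0.0609 on the log2 scale after the GC and length correction, and at 0.0596 with the replicate block added to it. The count of the 6 genes past the threshold for T3 against vehicle at 24 h was 2, but 0 when only the 4 libraries compared were fitted, 0 with the GC and length correction, and 0 with that correction and the replicate block. Leaving out 1 library at a time gave 0 to 2 there, the 0 coming without the second T3 library of 24 h, and 1 to 2 for the difference of responses, where the count was 1. Same-numbered libraries showed little shared deviation (correlations from -0.0437 to 0.0972 between groups). Counting noise lowers such correlations, so whether the numbers pair the libraries cannot be told from them. The replicate block gave 3 genes at 24 h. Among the other pathway genes, the GC and length correction turned DLD to -0.40 and ECHS1 to 0.84 in T3 libraries, 24 h over 6 h. Over 15 alternatives, BCAT1 at 6 h ranged from -2.27 to -1.70, with adjusted p up to 0.00113. At 24 h its adjusted p ranged from 0.024 with DESeq2 to 0.917. Over all genes, calls ranged from 132 to 2896 at 6 h (1117 as reported), from 159 to 2059 at 24 h (1950) and from 49 to 757 for the difference of responses (269). One alternative, pooling the treatments at each time, was chosen after seeing the data. Depth limits KMO, BCKDHA, IDO1 and TDO2, which had at most 11 counts in a library.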

Other observations

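Kynurenine is a ligand of the aryl hydrocarbon receptor, and of 8 listed genes of that receptor and its targets 5 were higher and 2 lower at 24 h than at 6 h with either treatment, where 70.4% of all genes were past the threshold in T3 and 64.5% in vehicle libraries. After the GC and length correction the counts were 4 higher and 3 lower in T3 libraries, and 3 higher and 3 lower in vehicle libraries. CYP1B1, a target that oxidises steroids and xenobiotics, averaged 124 ± 8.74 CPM in T3 libraries and 86.9 ± 12.7 CPM in vehicle libraries at 24 h, against 4.19 ± 0.31 CPM and 6.59 ± 2.99 CPM at 6 h (SD, n = 2 each). CYP1A1 was higher at 24 h by 2.24 ± 0.45 on the log2 scale in T3 and by 2.14 ± 0.43 in vehicle libraries. NQO1, a quinone reductase, fell by 2.21 ± 0.12 in T3 and by 2.32 ± 0.12 in vehicle libraries, and the receptor's repressor AHRR by 1.63 ± 0.15 and by 1.94 ± 0.16.

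Interferon-gamma is the best known inducer of IDO1, which had 0 counts. Of 8 tested genes of that axis, 5 were higher at 24 h in T3 and 4 in vehicle libraries, and 0 were lower by edgeR, by DESeq2 or at an unadjusted p under 0.05 (1 was lower in T3 libraries after the GC and length correction). The share of the 8 past the threshold in either direction was below that of all genes, 70.4% in T3 and 64.5% in vehicle libraries. The share that was higher was above that of all genes, 35.1% and 31.9%. Under the GC and length correction, IFNGR1 in T3 libraries (adjusted p = 0.402) and JAK1 in vehicle libraries (adjusted p = 0.0991) lost their calls. JAK2, a kinase of the receptor, was higher by 2.34 ± 0.26 on the log2 scale in T3 and by 2.43 ± 0.30 in vehicle libraries, and the transcription factor IRF1 by 1.54 ± 0.23 and by 1.79 ± 0.24. With T3 against vehicle, 0 of the 8 passed edgeR's or DESeq2's threshold at either time, and 1 had an unadjusted p under 0.05 at each.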
